A study of Arabidopsis thaliana with 8 samples.

Results

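The response to low phosphate (Pi) was followed in roots of bzr1-D, an Arabidopsis thaliana line whose BZR1 gene carries a dominant activating mutation, and was described across 20262 tested features of 40246 in the table. Its members were 4 of the 8 libraries in the series: bzr1-D roots at low Pi (1 µM, 2 libraries) and bzr1-D roots at adequate Pi (0.625 mM, 2 libraries), with one library of each supply in Exp 1 and one in Exp 2. Wild type, also in the Col-0 background and with 2 libraries at each supply, entered the same fit. All seedlings grew for 6 days with 0.2% sucrose before 24 h on either medium, and polyadenylated RNA was taken from whole roots at day 7. The labels name one bzr1-D line and do not define a shared Exp number or how many plants a library pooled. If replicates of a group were not independent cultures, the p-values measure only the spread between these libraries.

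BZR1 is the factor through which brassinosteroids, steroid hormones of growth, reach their target genes, and the bzr1-D allele stabilises its protein, so that brassinosteroid-responsive transcription is partly active without the hormone. When Pi runs low, the factor PHR1 is released from SPX proteins, binds the P1BS element in promoters and turns on Pi transporters, secreted phosphatases and enzymes that replace membrane phospholipids with galactolipids and sulfolipids. Roots also respond locally, through iron in the cell wall and through more and longer root hairs.

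Total counts in the 4 bzr1-D libraries lay between 15947895 and 20063436, and levels are given as CPM, counts scaled to a total of 1e6, where 1 CPM rested on 15.9 counts or more. Of 9 root tissue markers, 8 were above 1 CPM in each bzr1-D library, and of 18 tested shoot tissue markers 11 were. The root markers summed to 683 and 706 CPM in bzr1-D at low Pi and to 607 and 594 CPM at adequate Pi. The 18 tested shoot tissue markers summed to 161 and 189 CPM in bzr1-D at low Pi and to 180 and 175 CPM at adequate Pi, with a median log2 fold change of 0.05. BZR1 itself stood at 27.9 and 30.1 CPM at low Pi and at 28.7 and 33.9 CPM at adequate Pi. The allele alters the protein, so this transcript level does not check the genotype label. In whole-root RNA, fewer cells of a type and less RNA per cell cannot be told apart.

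At low Pi 4 genes rose in bzr1-D past the threshold, an adjusted p under 0.05 by edgeR (quasi-likelihood test, Benjamini-Hochberg adjustment over all features), which is 0.0197% of the features tested. UMAMIT38 (AT4G15540), from a family of transporters that includes amino acid exporters, had 24.9 and 26.3 CPM in bzr1-D at low Pi, against 11.4 and 13.7 CPM at adequate Pi. Both low Pi libraries stood above both adequate Pi libraries, and the log2 fold change was 1.03 ± 0.12 (SE, adjusted p = 0.0197 by edgeR). PCK2 (AT5G65690), a phosphoenolpyruvate carboxykinase, had 74.5 and 68.2 CPM at low Pi, against 41.5 and 43.8 CPM at adequate Pi, again without overlap (0.74 ± 0.09, adjusted p = 0.0197 by edgeR). GDPD2 (AT5G41080), which cleaves the glycerophosphodiesters left by phospholipid breakdown, had 205 and 184 CPM at low Pi, against 106 and 117 CPM at adequate Pi (0.81 ± 0.10, adjusted p = 0.0197 by edgeR). PHT1;8 (AT1G20860), a plasma membrane Pi transporter, showed the widest gap of the 4 genes, with 12.9 and 11.6 CPM at low Pi and 1.87 and 1.37 CPM at adequate Pi (2.90 ± 0.33, adjusted p = 0.0430 by edgeR).

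The same fit called 0 features lower (0.0%), where an unadjusted p under 0.05 was reached by 249 in that direction, while 2 passed with DESeq2 (0.00987%) and 0 with limma-voom. On the higher side DESeq2 called 49 (0.242%), all 4 genes among them, and limma-voom 0. Without the Exp number edgeR called none of the 4, while DESeq2 called 20 features that included all 4. Called and not called refer to the edgeR fit with the Exp number unless another tool is named. Without one of the adequate Pi libraries the number called higher was 0 (Exp 1) or 1 (Exp 2) in bzr1-D. Without the low Pi libraries of wild type, which share the estimate of spread, it was 92 (Exp 1) or 97 (Exp 2). It was 16 or 52 without the bzr1-D low Pi library of Exp 1 or Exp 2, and 0 without the wild-type adequate Pi library of Exp 2. A fit on the 4 bzr1-D libraries alone, with 1 residual degree of freedom, called 331 higher (1.68%) and 34 lower (0.173%) of 19667.

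**Figure D1:**
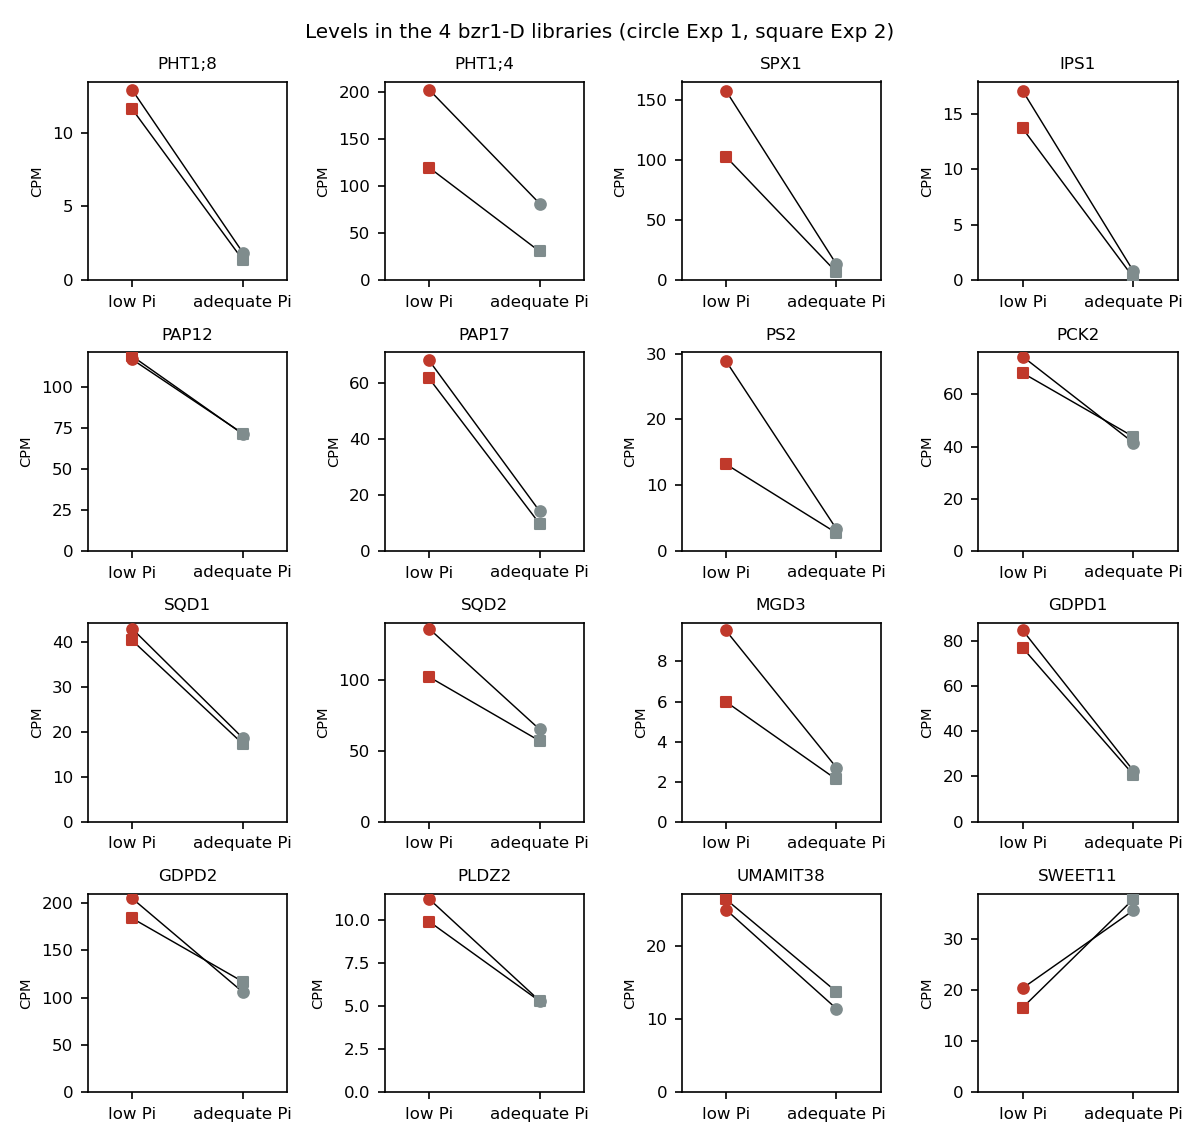
Levels in CPM (linear axis from 0) of 16 genes in the 4 bzr1-D libraries, low Pi left and adequate Pi right, with lines joining libraries of the same Exp number. SWEET11 is lower at low Pi in both experiments, and the other 15 genes are higher in both.

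Across all features the responses of the 2 experiments had little in common. The log2 differences of Exp 1 and Exp 2 correlated with a Pearson r of 0.28 and a Spearman rho of 0.07 across 20262 features, which share libraries and are not independent, and 50.4% had the same sign. Groups without overlap, at any size of difference, were near even, with 2010 features higher (9.92%) and 1970 lower (9.72%). Repeated differences past 2-fold lay mainly on the higher side. At least 2-fold in both experiments (log2 CPM with a prior count of 2), 85 features were higher (0.42%) and 6 lower (0.0296%). The 6 lower features averaged at most 1.17 CPM. Of the 85 higher ones, 15 belonged to the lists of Pi genes described next, 18 averaged under 1 CPM and 6 overlapped a neighbouring gene. In wild type, 88 features (0.434%) were higher and 3 (0.0148%) lower by the same rule. The sets shared 25 features, 29.4% of the bzr1-D set and 28.4% of the wild-type set.

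**Figure D2:**
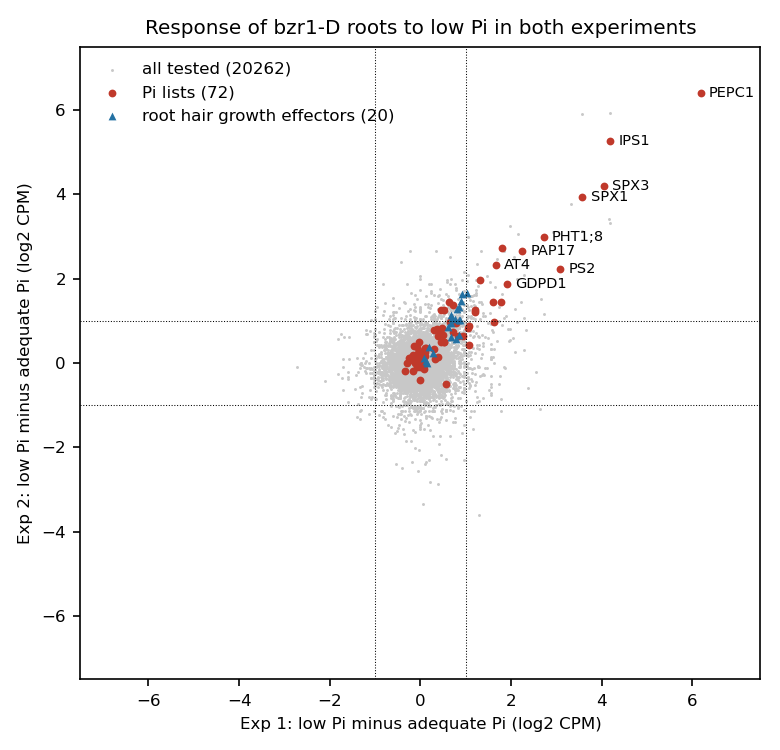
Low Pi minus adequate Pi in log2 CPM for bzr1-D, Exp 1 on the x axis and Exp 2 on the y axis; grey points are the 20262 tested features, red points the 72 tested Pi genes and blue triangles the 20 root hair growth effectors. Dotted lines mark 2-fold, and 15 Pi genes lie beyond it in both experiments.

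The 8 lists of Pi genes held 96 names, of which 72 had enough counts to be tested. Their median log2 fold change was 0.49 (0.38 within Exp 1 and 0.50 within Exp 2), beside 0.00 over all features. The median was 0.24 over the 59 members that averaged at least 5 CPM, and 0.29 without the bzr1-D adequate Pi library of Exp 2. The log2 fold change was above 0 for 59 members and below 0 for 13. Of the 72, 3 passed the adjusted threshold, which were PHT1;8, PCK2 and GDPD2. DESeq2 called 18 of them higher (beside 0.242% of all features), and the fit on the bzr1-D libraries alone 34 (beside 1.68%). The same shares apply to the counts of each list below. An unadjusted p under 0.05 by edgeR was found for 35 members higher and 0 lower, beside 2.97% and 1.23% of all features. Both low Pi libraries exceeded both adequate Pi libraries for 39 members, and 1 member lay wholly below, beside 9.92% and 9.72% of all features.

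Among the Pi uptake transporters all 7 tested members were higher in both low Pi libraries than in both adequate Pi libraries (beside 9.92% of all features). Their median log2 fold change was 1.02. Besides PHT1;8, called by edgeR, DESeq2 called 2 more and the bzr1-D libraries alone all 7. PHT1;4, a main carrier of Pi into the root, had 203 and 120 CPM at low Pi, against 81.6 and 30.6 CPM at adequate Pi. Its groups did not overlap, but the replicates of each group lay far apart, and its log2 fold change of 1.57 ± 0.51 (SE) was not called. PHT1;9, which acts with PHT1;8 in root uptake, had 2.91 and 2.2 CPM at low Pi, against 0.884 and 0.746 CPM at adequate Pi (1.64 ± 0.37, not called). PHF1, which lets PHT1 proteins leave the endoplasmic reticulum, had 78.9 and 68.7 CPM at low Pi, against 50.3 and 34.9 CPM at adequate Pi (0.80 ± 0.18, not called). PHT1;1, PHT1;2 and PHT1;3 are near-identical neighbours that can trade reads, so their values are uncertain. The list median of 1.02 is the value of PHT1;2 itself (1.02 ± 0.48, not called) and shares this uncertainty. PHT1;2 had 153 and 175 CPM in bzr1-D at low Pi, against 92.5 and 67.3 CPM at adequate Pi. In wild type it had only 0.716 and 4.7 CPM at low Pi, against 0.152 and 0.27 CPM at adequate Pi. PHT1;1 had 191 and 223 CPM in bzr1-D at low Pi, against 134 and 93.4 CPM at adequate Pi. In wild type PHT1;1 was higher instead, at 331 and 307 CPM at low Pi, against 211 and 189 CPM at adequate Pi. Whether reads moved between the copies was not tested. PHT1;5, PHT1;6 and PHT1;7 had too few counts to be tested.

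In the list for Pi export, the vacuole and PHO2, 5 of 8 members were above 0 and 3 below, with 0 called by edgeR, 1 by DESeq2 and 3 in the bzr1-D libraries alone. IPS1 and AT4, non-coding RNAs that sequester miR399, stood out in it. IPS1 had 17.1 and 13.7 CPM at low Pi, against 0.832 and 0.249 CPM at adequate Pi (4.78 ± 1.2 log2, not called). Its adequate Pi libraries held only 16 and 4 counts, so the size of this fold change is uncertain. AT4 had 270 and 322 CPM at low Pi, against 85.1 and 64.1 CPM at adequate Pi (1.93 ± 0.75, not called). G3Pp1, of the glycerol-3-phosphate permease family, had 173 and 127 CPM at low Pi, against 49.3 and 19.1 CPM at adequate Pi (2.17 ± 0.52, not called). In all 3 the groups were apart in both experiments. PHO2, the ubiquitin-conjugating enzyme that miR399 targets, had 325 and 431 CPM at low Pi, against 409 and 490 CPM at adequate Pi, and its groups overlapped.

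The SPX sensors and PHR1 regulators divided within their list, whose median over 11 tested members was 0.03, with 0 called by edgeR, 2 by DESeq2 and 3 in the bzr1-D libraries alone. SPX1, which holds PHR1 back while Pi is ample, had 158 and 103 CPM at low Pi, against 13.2 and 6.59 CPM at adequate Pi (3.70 ± 0.84, not called). SPX3, of the same family, had 6.79 and 3.0 CPM at low Pi, against 0.312 and 0.0621 CPM at adequate Pi (4.59 ± 1.31, not called). Its adequate Pi libraries held only 6 and 1 counts, so the size of this fold change is uncertain. SPX2 had 39.7 and 37.6 CPM at low Pi, against 23.1 and 19.4 CPM at adequate Pi (0.86 ± 0.15, not called). In these 3 genes each low Pi library exceeded each adequate Pi library. PHR1 had 51.7 and 60.0 CPM at low Pi, against 51.6 and 58.7 CPM at adequate Pi, a log2 fold change of 0.02 ± 0.08.

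The 16 tested purple acid phosphatases, a family that includes secreted enzymes freeing Pi from organic compounds, had a median of 0.07. Of the 16, 5 were apart and higher (31.2%, beside 9.92% of all features) and 1 was apart and lower (beside 9.72%). By edgeR 0 were called, while DESeq2 called 3 higher, PAP12, PAP17 and PAP7, and the bzr1-D libraries alone 4. PAP12 had 117 and 119 CPM at low Pi, against 71.7 and 71.4 CPM at adequate Pi (0.72 ± 0.11, adjusted p = 0.0698 by edgeR). PAP17 had 68.1 and 61.7 CPM at low Pi, against 14.2 and 9.69 CPM at adequate Pi (2.42 ± 0.51, not called), and its gene overlaps AT3G17800. PAP7 had 66.6 and 56.5 CPM at low Pi, against 48.1 and 31.5 CPM at adequate Pi (0.64 ± 0.12, not called). PAP10, a phosphatase of the root surface, had 40.3 and 26.6 CPM at low Pi, against 31.3 and 15.3 CPM at adequate Pi, and its groups overlapped.

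Of the 6 other phosphatases and nucleases, all had a log2 fold change above 0. By edgeR 0 were called, while DESeq2 called 1, PS2, and the bzr1-D libraries alone 2. PS2 (AT1G73010), a pyrophosphatase, had 28.9 and 13.2 CPM at low Pi, against 3.33 and 2.73 CPM at adequate Pi (2.76 ± 0.53, not called). PEPC1 (AT1G17710), a phosphatase of phosphoethanolamine and phosphocholine, was read as 296 and 157 counts at low Pi, against 2 and 0 counts at adequate Pi. Its adequate Pi libraries were too near 0 for a fold change. The phosphoenolpyruvate enzymes had a median of 0.50 over 7 members, of which edgeR called 1, DESeq2 called 2 and the bzr1-D libraries alone 5. Beside PCK2, the carboxylase kinase PPCK1 had 72.9 and 84.1 CPM at low Pi, against 55.6 and 53.6 CPM at adequate Pi (0.52 ± 0.09, not called). The carboxylase PPC2 had 64.3 and 74.9 CPM at low Pi, against 47.2 and 52.6 CPM at adequate Pi (0.48 ± 0.09, not called). Both genes were without overlap between the groups.

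Galactolipid and sulfolipid synthesis had a median of 0.86, with 7 of 8 members apart and higher (87.5%, beside 9.92% of all features). By edgeR 0 were called, while DESeq2 called 3, SQD1, SQD2 and MGD3, and the bzr1-D libraries alone 5. SQD2, which completes sulfolipid synthesis, had 136 and 102 CPM at low Pi, against 65.0 and 56.9 CPM at adequate Pi (0.96 ± 0.14, adjusted p = 0.0816 by edgeR). SQD1, which makes the sulfoquinovose donor, had 42.9 and 40.3 CPM at low Pi, against 18.6 and 17.3 CPM at adequate Pi (1.21 ± 0.20, not called). The galactolipid synthases MGD2 and MGD3 act under Pi shortage. MGD2 had 6.43 and 4.63 CPM at low Pi, against 2.03 and 2.30 CPM at adequate Pi (1.36 ± 0.24, not called). MGD3 had 9.55 and 5.99 CPM at low Pi, against 2.70 and 2.11 CPM at adequate Pi (1.68 ± 0.30, not called). In all 4 genes both low Pi libraries lay above both adequate Pi libraries.

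Phospholipid breakdown had a median of 0.57 over 9 members, with 5 apart and higher (55.6%, beside 9.92% of all features). EdgeR called GDPD2, DESeq2 called 3 and the bzr1-D libraries alone 5. GDPD1 had 84.7 and 76.9 CPM at low Pi, against 22.6 and 20.8 CPM at adequate Pi (1.90 ± 0.32, not called), and overlaps AT3G02030. NPC4, a phospholipase C, had 56.1 and 38.5 CPM at low Pi, against 24.2 and 16.1 CPM at adequate Pi (1.23 ± 0.26, not called). PLDZ2, a phospholipase D, had 11.2 and 9.89 CPM at low Pi, against 5.30 and 5.28 CPM at adequate Pi (1.00 ± 0.18, not called). None of these overlapped between the groups. NPC5, GDPD6 and NMT1 had too few counts to be tested.

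Whether the Pi response of bzr1-D differed from that of wild type was tested as the difference of both responses in one fit. By edgeR 0 features passed an adjusted p under 0.05 (0.0%), while 371 (1.83%) were higher and 275 (1.36%) lower in bzr1-D at an unadjusted p under 0.05; DESeq2 called 1 and limma-voom 0. Of the 72 Pi genes the difference was above 0 in 54, beside 10361 of all 20262 features. Their median response in wild type was 0.18, with 0.15 within Exp 1 and 0.30 within Exp 2. The wild-type experiments lay far apart for some of them, as for SPX3 (0.76 and 3.52). An unadjusted p under 0.05 by edgeR for the difference was reached by 8 higher and 2 lower. The lipid genes held 5 of the 8. MGD3 had a log2 fold change of 1.68 ± 0.30 in bzr1-D and -0.10 ± 0.36 in wild type, a difference of 1.77 ± 0.47 (SE, unadjusted p = 0.00338 by edgeR). Its wild-type levels were low, at 1.21 and 2.32 CPM at low Pi, against 2.13 and 1.71 CPM at adequate Pi. The wild-type response was -0.76 within Exp 1 and 0.42 within Exp 2. SQD2 had 0.96 ± 0.14 in bzr1-D and 0.20 ± 0.14 in wild type, a difference of 0.76 ± 0.19 (unadjusted p = 0.00338 by edgeR). The differences of MGD2 (1.11 ± 0.33), PLDZ2 (0.83 ± 0.25) and GDPD5, a glycerophosphodiesterase whose gene overlaps AT1G74205 (0.55 ± 0.16), were of the same sign. PCK2 was on the other side, at 0.74 ± 0.09 in bzr1-D and 1.05 ± 0.08 in wild type. None of these differences passed adjustment over all features. The 18 shoot tissue markers had a median response of 0.05 in bzr1-D and 0.54 in wild type (-0.19 within Exp 1 and 1.46 within Exp 2), and their part in the differences was not tested.

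**Figure D3:**
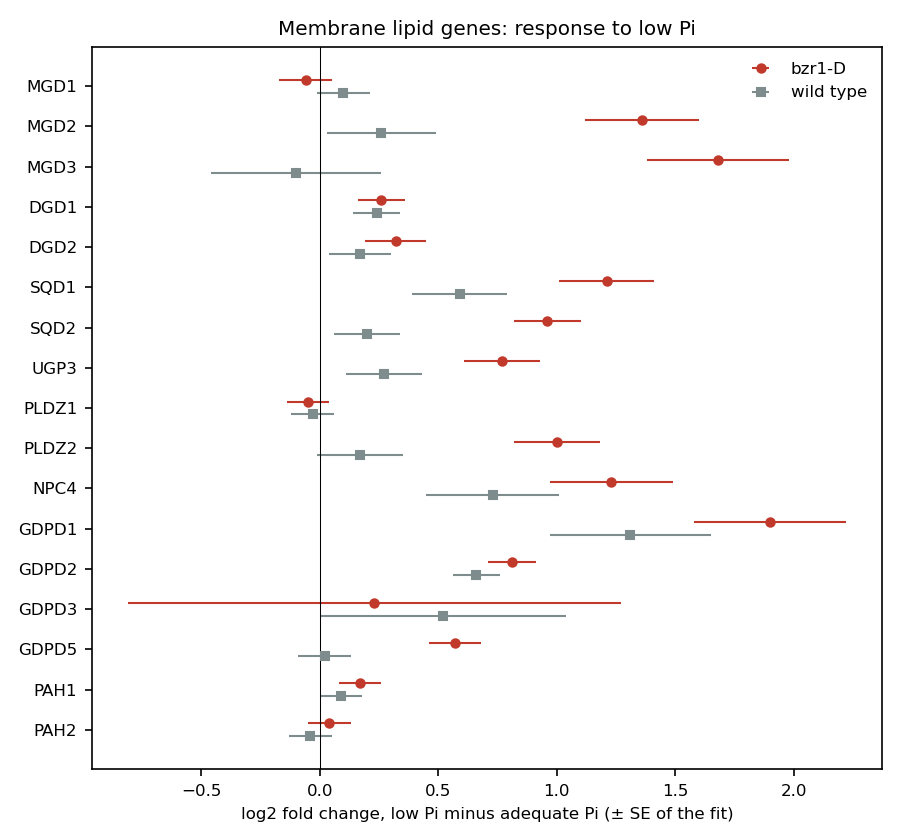
Log2 fold change, low Pi minus adequate Pi, with the SE of the fit, for the tested genes of galactolipid and sulfolipid synthesis and of phospholipid breakdown; red circles are bzr1-D and grey squares wild type. MGD3 stands at 1.68 in bzr1-D and -0.10 in wild type, while DGD1 lies at 0.26 and 0.24.

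The promoters of the Pi genes were searched for P1BS, the PHR1 element, as GNATATNC in 300 bases from 250 before to 50 after the gene start in RefSeq TAIR10.1. The motif is its own reverse complement, so one search covers both strands. It stood in 18 of the 39 Pi genes whose low Pi libraries lay above both adequate Pi libraries (46.2%) and in 7 of the other 33 (21.2%). Among all tested protein-coding genes it stood in 1198 of 19492 (6.15%). In a longer window, from 1000 before to 50 after the start, the shares were 66.7% of the 39, 48.5% of the other 33 and 21.0% of all tested. Of the 79 protein-coding genes 2-fold higher in both experiments, 21 held it (26.6%). Of the 3 called Pi genes GDPD2 held a match in the 300 bases, and PHT1;8 and PCK2 held none. IPS1, PEPC1, PAP17, G3Pp1 and MGD3, described above, held none either. The 6 windows below were picked because they hold the element, in capitals, and show where it lies in them. They are written 5′ to 3′ on the gene's strand.
SPX1: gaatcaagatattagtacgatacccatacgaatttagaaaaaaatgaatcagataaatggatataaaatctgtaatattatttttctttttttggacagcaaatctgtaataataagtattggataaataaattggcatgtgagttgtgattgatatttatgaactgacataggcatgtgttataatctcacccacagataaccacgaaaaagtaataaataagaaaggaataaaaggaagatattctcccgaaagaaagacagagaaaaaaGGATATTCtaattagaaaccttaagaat
SPX3: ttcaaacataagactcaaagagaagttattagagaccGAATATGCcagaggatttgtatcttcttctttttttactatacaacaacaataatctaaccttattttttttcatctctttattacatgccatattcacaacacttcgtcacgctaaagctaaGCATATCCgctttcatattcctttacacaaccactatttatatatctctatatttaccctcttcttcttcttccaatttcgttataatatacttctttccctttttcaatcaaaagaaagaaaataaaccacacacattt
PS2: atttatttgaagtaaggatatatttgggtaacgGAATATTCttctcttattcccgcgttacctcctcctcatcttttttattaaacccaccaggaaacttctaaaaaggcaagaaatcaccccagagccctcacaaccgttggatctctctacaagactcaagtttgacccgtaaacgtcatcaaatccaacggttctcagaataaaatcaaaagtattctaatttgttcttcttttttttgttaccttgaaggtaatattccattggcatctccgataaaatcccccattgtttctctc
MGD2: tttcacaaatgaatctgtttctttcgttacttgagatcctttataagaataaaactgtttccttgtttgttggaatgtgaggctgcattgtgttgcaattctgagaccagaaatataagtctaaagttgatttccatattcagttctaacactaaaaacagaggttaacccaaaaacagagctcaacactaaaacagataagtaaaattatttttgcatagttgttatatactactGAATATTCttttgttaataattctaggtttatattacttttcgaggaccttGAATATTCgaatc
GDPD1: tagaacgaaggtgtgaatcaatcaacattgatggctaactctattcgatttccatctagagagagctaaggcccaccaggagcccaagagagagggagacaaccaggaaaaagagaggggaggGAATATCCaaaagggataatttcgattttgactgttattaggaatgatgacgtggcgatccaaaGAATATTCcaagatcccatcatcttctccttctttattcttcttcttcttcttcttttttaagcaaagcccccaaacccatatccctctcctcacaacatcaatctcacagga
GDPD2: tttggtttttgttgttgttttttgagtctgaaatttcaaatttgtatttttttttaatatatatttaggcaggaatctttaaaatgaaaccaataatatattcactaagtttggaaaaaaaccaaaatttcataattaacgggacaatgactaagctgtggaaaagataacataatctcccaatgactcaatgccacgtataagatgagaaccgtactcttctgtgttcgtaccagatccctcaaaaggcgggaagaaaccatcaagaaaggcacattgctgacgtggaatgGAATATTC

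The windows are chr5:6802032-6802331 (SPX1, plus strand), chr2:18606160-18606459 (SPX3, plus), chr1:27466299-27466598 (PS2, minus), chr5:6896213-6896512 (MGD2, plus), chr3:349961-350260 (GDPD1, minus) and chr5:16441405-16441704 (GDPD2, plus). SPX3, MGD2 and GDPD1 each held 2 matches, and SPX1, PS2 and GDPD2 held 1. Counted in bases from the gene start, the matches in the Pi genes began between -219, in NPC4, and 43, in GDPD2. The G-box CACGTG, a BZR1 and bHLH element, stood in 8.33% of the 72 Pi genes (2.56% of the 39 and 15.2% of the other 33), beside 8.64% of tested protein-coding genes. The brassinosteroid response element CGTGTG (or CACACG on the other strand) stood in 6.94% of the 72 (2.56% and 12.1%), beside 6.72%. CGTGCG (or CGCACG) stood in 1.39% of the 72 (0.0% and 3.03%), beside 2.16%. A match is a string of letters and does not show binding.

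**Figure D4:**
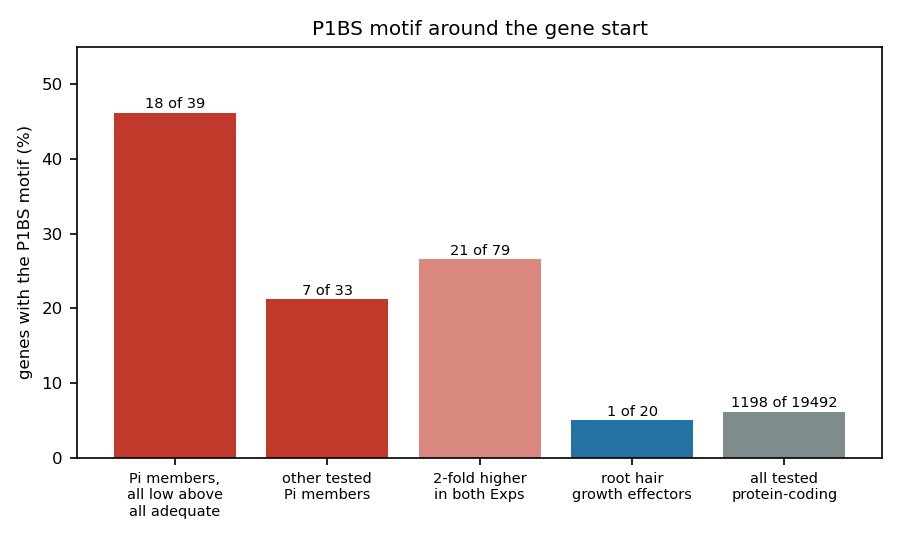
Share of genes (%) with a GNATATNC match in the 300-base window, for Pi genes with both low Pi libraries above both adequate Pi libraries, the other tested Pi genes, genes 2-fold higher in both experiments, root hair growth effectors and all tested protein-coding genes. The shares are 46.2, 21.2, 26.6, 5.0 and 6.15%.

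Beyond the Pi genes, the root hair growth effectors had the highest median of the lists. These cell wall proteins, kinases and membrane proteins build the growing hair. All 20 tested members had a log2 fold change above 0, with a median of 0.79 (0.73 within Exp 1 and 0.98 within Exp 2) and 0.28 in wild type, and 4 were apart and higher between the groups (20%, beside 9.92% of all features). By edgeR 0 were called and by DESeq2 1, COW1, whereas the bzr1-D libraries alone gave 15 (beside 1.68%). COW1, a phosphatidylinositol transfer protein needed for hair elongation, had 39.7 and 23.5 CPM at low Pi, against 21.8 and 11.6 CPM at adequate Pi (0.92 ± 0.25, not called). The Exp 1 libraries were higher than the Exp 2 libraries at both supplies. IRE, a kinase of hair elongation, had 13.8 and 9.04 CPM at low Pi, against 7.96 and 6.03 CPM at adequate Pi (0.70 ± 0.14, not called). Among 14 root hair regulators the median was 0.17. The bHLH factor RSL2, which drives hair growth, had 16.7 and 11.2 CPM at low Pi, against 10.7 and 3.85 CPM at adequate Pi (0.95 ± 0.35, not called).

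Sulfate uptake and assimilation had a median of 0.37 over 13 members, with 9 above 0 and 4 below. By edgeR or DESeq2 0 were called, and 4 in the bzr1-D libraries alone (beside 1.68% of all features). LSU2, a small protein induced by sulfur shortage, had 5.21 and 2.88 CPM at low Pi, against 2.24 and 0.87 CPM at adequate Pi (1.38 ± 0.31, not called). SULTR1;1, a high-affinity sulfate transporter, had 2.25 and 1.19 CPM at low Pi, against 0.988 and 0.497 CPM at adequate Pi (1.19 ± 0.36, not called). Iron deficiency genes lay on the other side, with 17 of 21 below 0 and a median of -0.34. By edgeR or DESeq2 0 were called, and 2 were lower in the bzr1-D libraries alone (beside 0.173% of all features). The regulator BHLH39 had 30.1 and 25.2 CPM at low Pi, against 34.1 and 36.3 CPM at adequate Pi (-0.35 ± 0.18, not called), and the list's median was -0.05 within Exp 1 and -0.53 within Exp 2. The 6 iron storage genes were all above 0, with a median of 0.23 (0.09 within Exp 1 and 0.40 within Exp 2) and 0.13 in wild type. By edgeR, by DESeq2 or in the bzr1-D libraries alone 0 of the 6 were called, and 0 had an unadjusted p under 0.05 by edgeR.

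Brassinosteroid genes showed medians of -0.05 (synthesis, 10 members), -0.08 (inactivation, 4) and -0.10 (perception and signalling, 13, of which 10 were below 0). By edgeR, by DESeq2 or in the bzr1-D libraries alone 0 were called. Of the 10 synthesis genes 4 were apart and lower and 1 apart and higher, beside 9.72% and 9.92% of all features. An unadjusted p under 0.05 by edgeR was reached by 2 of the 10, both lower (beside 1.23%). These were ROT3 (-0.24 ± 0.09, not called) and CYP90D1. CYP90D1, a C-23 hydroxylase of brassinosteroid synthesis, had 5.0 and 3.73 CPM at low Pi, against 8.01 and 5.09 CPM at adequate Pi (-0.58 ± 0.15, not called). The touch and stress list had a median of 0.19 (0.34 in wild type), with 11 of 12 members above 0. Of the 12, 7 were apart and higher (58.3%, beside 9.92% of all features). By edgeR 0 were called, while DESeq2 and the bzr1-D libraries alone called CNGC19. This calcium-permeable channel had 3.68 and 3.17 CPM at low Pi, against 0.780 and 1.24 CPM at adequate Pi (1.79 ± 0.34, not called). Its log2 fold change in wild type was 2.73 ± 0.29 (adjusted p = 0.00583 by edgeR). The difference, bzr1-D minus wild type, was -0.94 ± 0.47 (unadjusted p = 0.0728 by edgeR) and did not pass adjustment. Local Pi sensing (-0.01), nitrate and ammonium (-0.06), auxin transport (-0.11), early auxin genes (0.02), ethylene (-0.03), mitosis (0.00) and the stem cell niche (-0.10) had medians near that of all features.

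**Figure D5:**
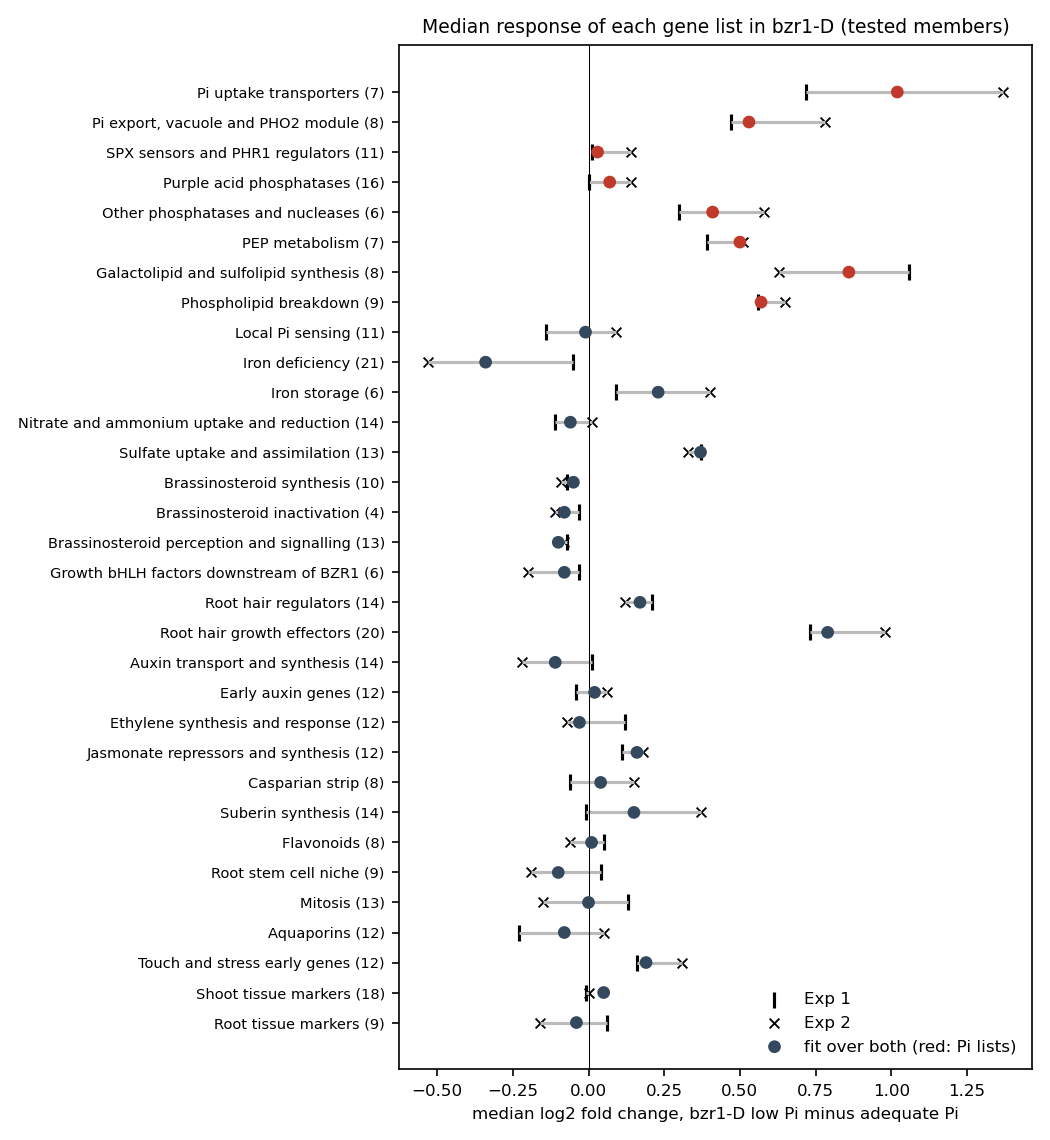
Median log2 fold change, bzr1-D low Pi minus adequate Pi, of the tested members of 32 gene lists (number in brackets); circles are the fit over both experiments (red for Pi genes), bars Exp 1 and crosses Exp 2. Pi uptake transporters (1.02) and galactolipid and sulfolipid synthesis (0.86) lie farthest right, and iron deficiency (-0.34) farthest left.

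Among genes averaging at least 5 CPM, those with the smallest unadjusted p outside the Pi lists included HMA2 and SWEET11. HMA2, a zinc-exporting ATPase, had 23.7 and 18.0 CPM at low Pi, against 13.3 and 7.21 CPM at adequate Pi (1.07 ± 0.16, adjusted p = 0.0698 by edgeR). AT2G43535 had 247 and 261 CPM at low Pi, against 127 and 132 CPM at adequate Pi (0.97 ± 0.14, adjusted p = 0.0698 by edgeR). On the lower side, SWEET11, a sucrose exporter, had 20.4 and 16.6 CPM at low Pi, against 35.6 and 37.8 CPM at adequate Pi (-1.0 ± 0.15, adjusted p = 0.0900 by edgeR). AT2G22122 had 61.5 and 76.3 CPM at low Pi, against 91.7 and 108 CPM at adequate Pi (-0.54 ± 0.11, not called). Groups were apart in all 4 genes, and SWEET11 and AT2G22122 were the 2 genes that DESeq2 called lower.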

How the data were processed

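Whole-number counts per feature for 8 libraries were deposited by the authors with no normalization. TopHat2 2.0.11, HTSeq 0.6.1, DESeq2 1.2.8 and the TAIR10 build are named per the submitters' processing notes. Neither strand use in counting nor multiply mapped reads are described, so overlapping genes and near-identical copies are uncertain. Of 40246 features, 32940 were matched to a RefSeq TAIR10.1 locus, and 99.8% of matched starts lay within 2 kb.

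Tests used edgeR 4.0.16 under R 4.3.3 (quasi-likelihood, robust, TMM, default filter with a minimum count of 10) over all 8 libraries, with 1 coefficient per group and the Exp number as replicate block, leaving 3 residual degrees of freedom. Benjamini-Hochberg adjustment ran over 20262 features. SE was the log2 fold change over the square root of F. Same-numbered libraries deviated together in all 6 pairs of groups (r from 0.29 to 0.643, and 0.604 within bzr1-D); the pairing rests on the Exp number in the labels. Replicates differed by more than sampling noise (chi-square per degree of freedom 16.9 to 36.3). CPM used TMM scaling. Alternatives were DESeq2 1.42.0, limma-voom (limma 3.58.1), other scaling, filters and prior counts, the bzr1-D libraries alone and leaving out each library. The fit was also run on simulated counts with the same Exp effect in all groups and the same spread in all genes. That setting does not cover an Exp effect that differs between genotypes.

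Of 413 list entries, 391 matched name and locus; 22 did not and were left out. Genes, lists and members were chosen with earlier results of these data known. Genes were named if called, if among the 12 smallest p in either direction at 5 CPM or more, if in a Pi list, or if among the 4 smallest p of another list; the text gives a selection of them.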

Additional observations from a re-analysis of the deposited data

Results flagged for a closer look

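Some named genes moved one way in both bzr1-D experiments and the other way in both wild-type experiments. The share of all features with such signs was not counted, so the signs are a description only. SWEET11, CNGC12 and NEK1 were named for a small p in bzr1-D, and several of the values below lie near 0. Differences are bzr1-D minus wild type in the log2 response to low Pi, and none passed adjustment over all features by edgeR (adjusted p of at least 0.996). BFN1, a nuclease, had within-experiment values of 0.11 and 0.36 in bzr1-D and -0.46 and -0.96 in wild type, a difference of 0.94. SWEET11, a sucrose exporter, had within-experiment values of -0.80 and -1.18 in bzr1-D and 0.06 and 0.32 in wild type, a difference of -1.18. CNGC12, a cyclic nucleotide-gated channel, had within-experiment values of -0.45 and -0.40 in bzr1-D and 0.11 and 0.05 in wild type, a difference of -0.51. NEK1, a kinase, had within-experiment values of -0.34 and -0.32 in bzr1-D and 0.03 and 0.18 in wild type, a difference of -0.44. SULTR2;1, a sulfate transporter, had within-experiment values of 0.33 and 0.75 in bzr1-D and -0.20 and -0.34 in wild type, a difference of 0.78. LRL3, a root hair bHLH factor, had within-experiment values of 0.25 and 0.52 in bzr1-D and -0.04 and -0.02 in wild type, a difference of 0.41. BZR1, the mutated factor itself, had within-experiment values of -0.04 and -0.17 in bzr1-D and 0.19 and 0.12 in wild type, a difference of -0.26.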

How the results depend on the processing

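The count of 4 genes higher depended on the fit. It was 0 with no replicate block, 0 with limma-voom, 20 with no filter on low counts, 49 with DESeq2, 20 with DESeq2 and no replicate block (chosen after seeing the data) and 331 with the 4 bzr1-D libraries alone. Leaving out one library gave 0 to 97. The count of 0 lower became 1 with no filter, 2 with DESeq2, 34 with the bzr1-D libraries alone and 0 to 9 with one library left out. The difference of responses, 0 features, became 1 with no filter, 1 with DESeq2 and 0 to 33 with one library left out. The highest value came without the wild-type low Pi library of Exp 1. Over these alternatives adjusted p (edgeR, DESeq2 or limma-voom) ranged from 4.59e-10 to 1.00 for UMAMIT38, 1.26e-08 to 0.829 for PCK2, 1.42e-09 to 0.829 for GDPD2 and 2.13e-20 to 1.00 for PHT1;8. The 85 features 2-fold higher became 34 at a mean of at least 5 CPM. The 6 lower became 14 with a prior count of 0.5, 1 with a prior count of 5, 26 with no filter and 1 at 5 CPM. The Pi median of 0.49 was 0.24 at 5 CPM and 0.29 to 0.52 with one library left out. PHR1 ranged from -0.0031, without the bzr1-D adequate Pi library of Exp 2, to 0.04 with one library left out. The cause of these shifts was not tested. With 2 libraries a group, differences in genes near 1 CPM rest on few counts.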

Other observations

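The genes that follow were picked after their values were seen from those 2-fold higher in both bzr1-D experiments, except SKOR, which was lower by less than 2-fold, and are given without a test. They stand for no family as a whole. The extensins EXT6, EXT10 and EXT11, structural wall proteins, had within-experiment log2 differences of 1.08 and 1.56, 1.09 and 1.5, and 1.24 and 2.35. The wall-loosening enzymes XTH12, XTH13 and XTH26 had 1.04 and 1.12, 1.28 and 1.94, and 1.23 and 1.97. Low and adequate Pi libraries overlapped for EXT6, EXT10, XTH12 and XTH13, and were apart for EXT11 and XTH26. For EXT10 the levels were 164 and 50.0 CPM in bzr1-D at low Pi, against 77.1 and 17.6 CPM at adequate Pi, so the experiments were farther apart than the supplies. OCT1, an organic cation transporter whose gene overlaps AT1G73230, had 17.1 and 15.0 CPM at low Pi, against 1.61 and 0.994 CPM at adequate Pi. PLL3 had 6.08 and 3.0 CPM at low Pi, against 0.416 and 0.249 CPM at adequate Pi, and G3Pp3, a second glycerol-3-phosphate permease family member, had 3.88 and 2.77 CPM against 1.04 and 0.808 CPM at adequate Pi. SKOR, a potassium channel that loads the xylem and whose gene overlaps AT3G02840, had 34.5 and 42.4 CPM at low Pi, against 61.0 and 65.9 CPM at adequate Pi.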
